A study of Homo sapiens with 18 samples.

Results

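The depletion of PRMT5 in dexamethasone-treated MDA-MB-231 cells was examined by comparing the siPRMT5 Dex libraries with the siNS Dex libraries, that is, 6 of the 18 RNA libraries of the series. MDA-MB-231 is an established human triple-negative breast cancer cell line. The cells were transfected for 48 h with 25 nM of a SMART-pool siRNA, either against PRMT5 (siPRMT5) or of a non-specific sequence (siNS). They received 100 nM dexamethasone (Dex), a synthetic glucocorticoid, for 8 h before RNA was extracted. Whether the 8 h fell within the 48 h is not stated. The same siRNAs with the vehicle ethanol (Eth) gave 6 further libraries that were used to ask whether an effect was also seen without Dex, and siHP1γ cells with Eth or Dex, another 6 libraries, were used to define Dex-responsive genes outside the 6 libraries compared. Every group held 3 libraries. All cells were of 1 line, 1 pool of siRNAs was used per target, no PRMT5 was put back, and RNA rather than protein was measured.

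PRMT5 is the main type II protein arginine methyltransferase. It places symmetric dimethylation on arginines, works in a complex with WDR77, and methylates spliceosomal Sm proteins and histone tails among many other substrates. The glucocorticoid receptor (GR, encoded by NR3C1) is a ligand-activated transcription factor that binds DNA when Dex is present and recruits coregulators to induce some genes and repress others, and PRMT5 is one of the proteins that can act as a GR coregulator.

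The siNS Dex libraries held 11517559, 9486609 and 11299486 counts, and the siPRMT5 Dex libraries held 10225497, 12472381 and 9014181 counts. Levels are given below as CPM, the counts of a gene scaled to the size of its library, in the order of replicates 1, 2 and 3, and a CPM cannot be compared between genes because it is not corrected for length. A gene was called changed when its adjusted p-value was under 0.05 in edgeR's quasi-likelihood test, and all adjusted p-values below are from that test. Fold changes are siPRMT5 Dex over siNS Dex on the log2 scale, with their standard error (SE). With 3 libraries against 3, an exact two-sided permutation test of a single gene cannot go below p = 0.1. The libraries are bulk RNA, so fewer cells of a kind and less RNA per cell cannot be told apart.

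The identity markers of a mesenchymal triple-negative line were checked in both groups. CDH1, which encodes E-cadherin, was at 0 counts in all 6 libraries, and the 7 markers that such cells hold at low level, among them ESR1, PGR and ERBB2, summed to 48.9 to 57 CPM in siNS Dex and 48.6 to 55 CPM in siPRMT5 Dex libraries. The 6 mesenchymal markers, such as VIM, summed to 10052 to 10597 and 9880 to 10577 CPM, a sum made mostly of VIM (6725 to 7834 CPM over the 6 libraries). Single members differed, since AXL fell, as given below, and FOXA1, a luminal transcription factor of the low-level list, rose from 4.86, 3.27 and 5.08 CPM to 7.82, 6.91 and 7.81 CPM (0.75, SE 0.177, adjusted p = 0.00131). Of 13 markers of other cell types, 5 were at 0 counts in all 6 libraries, and the list summed to 4.79 to 6.01 CPM in siNS Dex and 6.94 to 8.94 CPM in siPRMT5 Dex libraries. Most of that sum was PECAM1, an adhesion molecule of endothelial and blood cells, at 3.97, 3.92 and 4.53 CPM against 5.67, 6.66 and 8.15 CPM, which was called higher (log2 fold change 0.71, SE 0.172, adjusted p = 0.00166).

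The siRNA target was strongly reduced. PRMT5 (chr14:22920525-22929408, minus strand, hg38) was at 244, 247 and 226 CPM in siNS Dex cells and at 11.5, 10.6 and 9.39 CPM in siPRMT5 Dex cells. Its log2 fold change was -4.50 (SE 0.0974, adjusted p = 1.38e-21) with Dex and -5.08 without Dex, a difference of 0.57 (adjusted p = 0.0297), and the part of this in the differences with and without Dex given below was not tested. The gene overlaps an annotated antisense gene and has a pseudogene, so a part of the reads could belong to either.

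The partners of PRMT5 were divided. WDR77, the obligate subunit of the methyltransferase complex, had a log2 fold change of -0.03 (adjusted p = 0.857), and CLNS1A, the pICln adaptor that brings Sm proteins to it, had -0.01 (adjusted p = 0.876), so neither passed the test. RIOK1, an alternative adaptor, rose from 50.3, 52.7 and 58.5 CPM to 81.3, 73.3 and 83.7 CPM (0.56, SE 0.0747, adjusted p = 1.2e-06). Among the other arginine methyltransferases, PRMT6, which makes asymmetric dimethylarginine on histone H3, rose from 57.2, 56.9 and 54.1 CPM to 81.7, 79.4 and 77.1 CPM. The log2 fold change of PRMT6 was 0.50 (SE 0.0717, adjusted p = 3.2e-06). The main asymmetric enzyme PRMT1 fell from 280, 327 and 304 CPM to 225, 183 and 249 CPM, by 0.47 on the log2 scale (adjusted p = 0.00516), and the coactivator CARM1 fell by 0.41 (adjusted p = 0.000122). The groups did not overlap for RIOK1, PRMT6, PRMT1 or CARM1. Of the 12 tested genes of the PRMT family and its partners, PRMT5 among them, 2 were called higher and 5 lower.

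Across the 15298 genes tested, 42.4% were called in either direction, 20.6% higher and 21.9% lower, so a list of genes is read below against these shares. The values of the siNS Dex and siPRMT5 Dex libraries did not overlap for 51.5% of all genes tested, and for 96% of the genes called. Most of the changes were small. The median log2 fold change was 0.45 over genes called higher and -0.56 over genes called lower, and 999 genes rose and 1593 fell by at least 1.5-fold. At a 4-fold limit, 57 genes were higher and 76 lower. The median over all genes tested was 0.00.

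Most of the genes called with Dex moved the same way without it. In Eth-treated cells, compared in libraries that are not among the 6, 20.6% of genes were called higher and 21.6% lower upon PRMT5 depletion. Of the 6488 genes called with Dex, 4296 (66.2%) were called in the same direction without Dex, which was 66.6% of the 6446 genes called without Dex, and 62 were called in the opposite direction. The sign was the same for 92.2% of the genes called with Dex. The difference between the depletion effects with and without Dex, tested as an interaction, passed for 3.8% of all genes and for 391 (6.03%) of the genes called with Dex. That share rests in part on single libraries, since the 582 genes with a called difference became 330 without siNS Dex replicate 1, 355 without siNS Dex replicate 3 and 355 without siPRMT5 Dex replicate 2.

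**Figure D1:**
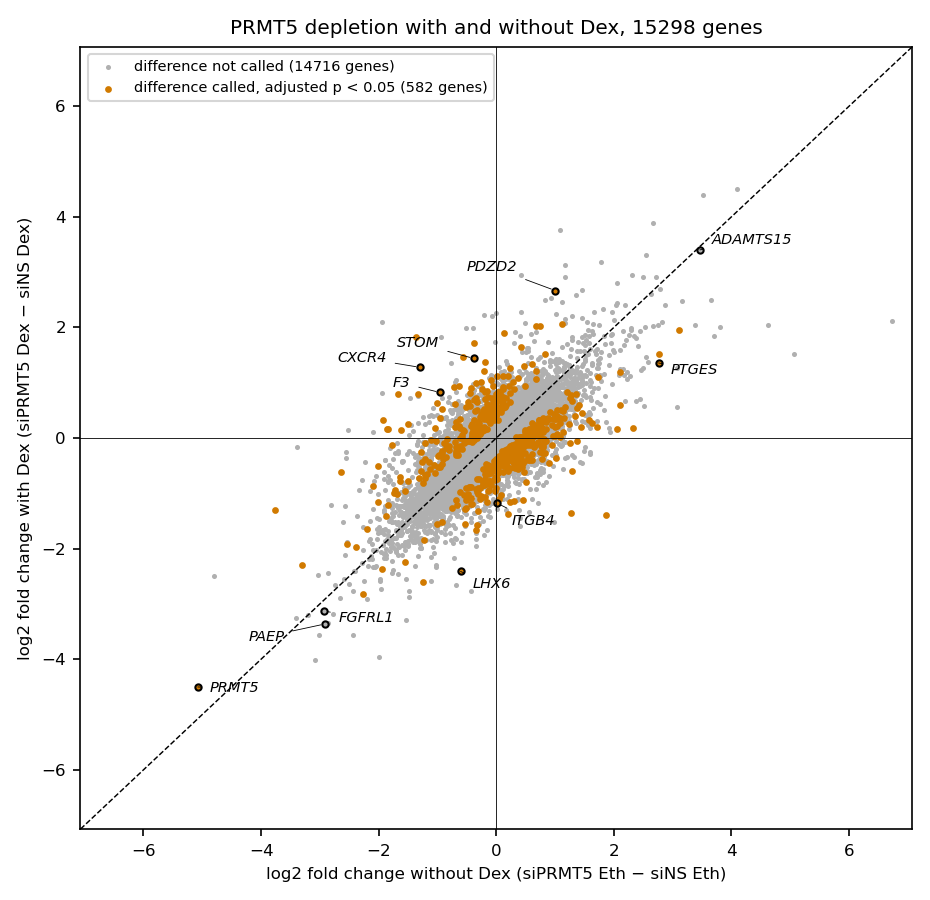
Log2 fold change upon PRMT5 depletion in Eth-treated cells (x axis) against that in Dex-treated cells (y axis), 1 point per gene tested, with the 582 genes whose difference was called in orange and a dashed line of equal change. Most points follow the diagonal, and genes such as PDZD2, CXCR4 and LHX6 lie away from it.

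The 10 largest increases are given here and in the next paragraphs, beginning with proteases and an adhesion gene. ADAMTS15 (chr11:130448645-130476645, plus strand, hg38), which encodes a secreted proteoglycan-cleaving protease, was at 1.41, 0.872 and 1.18 CPM in siNS Dex cells and at 12.4, 11 and 14.4 CPM in siPRMT5 Dex cells. Every siPRMT5 Dex library was above every siNS Dex library. The log2 fold change was 3.40 (SE 0.232, adjusted p = 9.07e-12), and 3.46 without Dex. NEDD9, a scaffold of focal adhesion signalling, rose from 1.77, 1.96 and 1.36 CPM to 14.5, 14.9 and 17.2 CPM, with a log2 fold change of 3.19 with Dex and 1.79 without (adjusted p = 0.0837 for the difference). ADAMTS9, a related metalloprotease, rose from 11.9, 12.3 and 10.9 CPM to 43.6, 47.8 and 55.7 CPM. Its log2 fold change was 2.07 with Dex and 1.11 without, and the difference of 0.95 passed the test (adjusted p = 0.005).

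HPGD, the dehydrogenase that inactivates prostaglandins, had the largest increase of the 10. It was at 0.972, 1.2 and 0.544 CPM in siNS Dex cells and at 12, 12.9 and 11.8 CPM in siPRMT5 Dex cells, a log2 fold change of 3.77 (SE 0.274, adjusted p = 3.21e-11). Without Dex its log2 fold change was 1.08 (adjusted p = 0.173), and the difference missed the threshold (adjusted p = 0.0646). NEBL, which encodes the actin-binding protein nebulette, went from 1.68, 1.2 and 1.54 CPM to 10.6, 12.6 and 11.5 CPM (2.95, SE 0.197, adjusted p = 5.93e-12), against 0.43 without Dex (adjusted p = 0.675, and 0.0736 for the difference). The SE without Dex was 0.626 for HPGD and 0.655 for NEBL, above that with Dex. VIPR1, a receptor of vasoactive intestinal peptide, rose from 5.56, 5.99 and 5.89 CPM to 33.3, 25.4 and 34.4 CPM. Its log2 fold change was 2.41 with Dex and 2.87 without. In each of these genes the groups did not overlap.

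PDZD2, a large protein with several PDZ domains, showed the clearest dependence on Dex among the large increases. It was at 37.8, 36.8 and 41.1 CPM in siNS Dex cells and at 217, 258 and 261 CPM in siPRMT5 Dex cells, a 2.67 log2 fold change (SE 0.101, adjusted p = 9.9e-17). Without Dex the log2 fold change of PDZD2 was 1.0, and the difference of 1.67 passed the test (adjusted p = 7.96e-08). The remaining members of the 10 largest increases were ASB9, an adaptor of a ubiquitin ligase, with 2.80, the membrane protein gene PLLP with 2.05 and the unplaced symbol AC009404.1 with 2.05. All 3 were also called higher without Dex, at 2.05, 2.74 and 1.64. Of the 20 largest increases and decreases, 18 were called the same way without Dex.

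**Figure D2:**
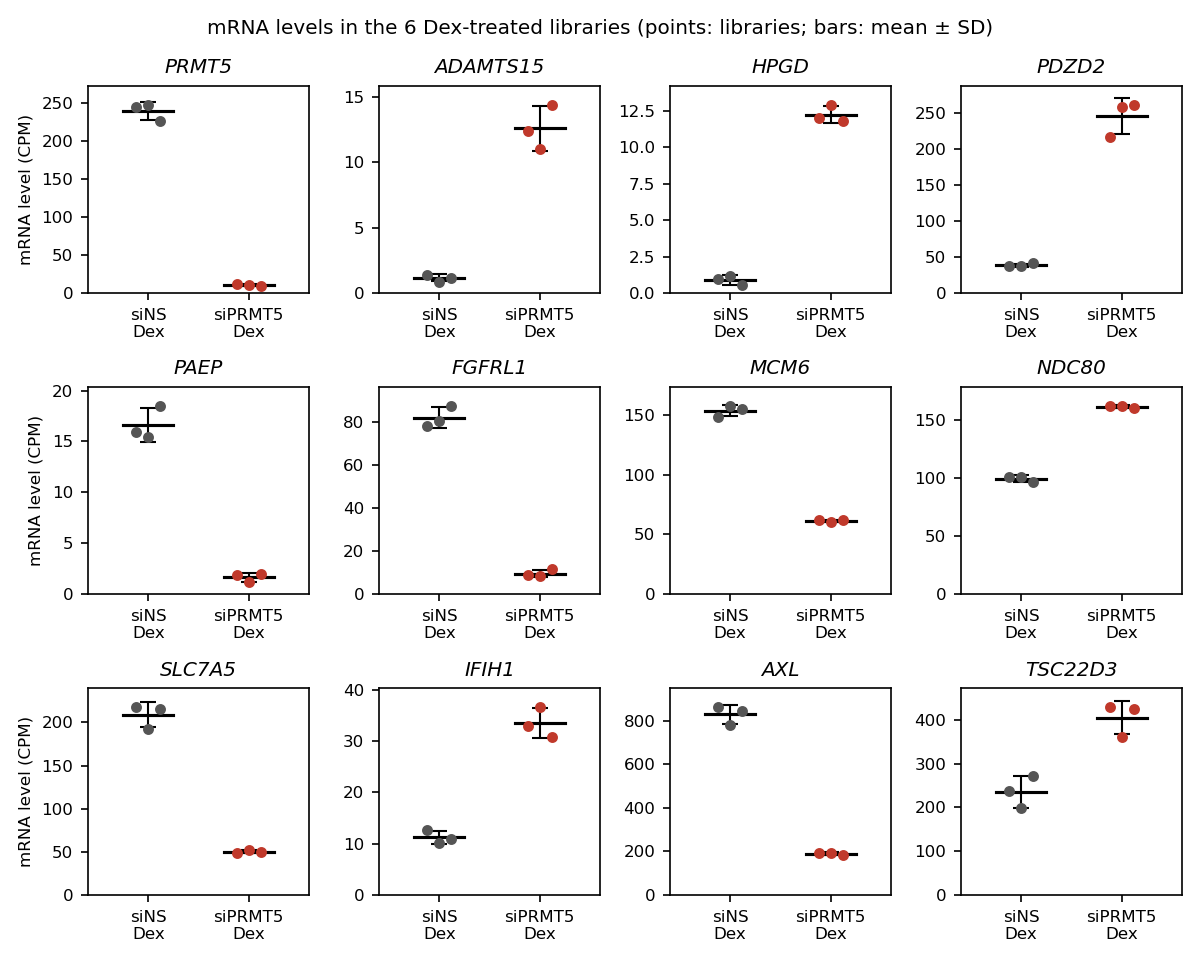
CPM (y axis, from 0) of 12 genes in each siNS Dex and siPRMT5 Dex library, 1 point per library (n = 3 per group), with lines at the mean and bars of 1 SD. The groups are separate for every gene drawn, with PRMT5 at 226 to 247 CPM in siNS Dex cells and 9.39 to 11.5 CPM in siPRMT5 Dex cells.

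The largest decreases included receptors, membrane trafficking genes and a secreted lipocalin. PAEP (chr9:135561756-135566955, plus strand, hg38), which encodes glycodelin, fell from 15.9, 15.4 and 18.5 CPM to 1.86, 1.15 and 1.92 CPM, with a log2 fold change of -3.36 (SE 0.204, adjusted p = 1.08e-12) and -2.91 without Dex. FGFRL1 (chr4:1009936-1026898, plus strand, hg38), an FGF receptor that lacks the kinase domain, fell from 78.3, 80.4 and 87.5 CPM to 8.7, 8.22 and 11.5 CPM, with -3.13 (SE 0.167, adjusted p = 1e-13) and -2.93 without Dex. The lowest siNS Dex library was several-fold above the highest siPRMT5 Dex library for both genes. EHD2, an ATPase at the neck of caveolae, fell from 148, 127 and 147 CPM to 22.4, 18 and 19.2 CPM (-2.83, SE 0.0942, adjusted p = 1.42e-17). CHMP3, a subunit of the membrane-cutting ESCRT-III machinery, fell from 112, 106 and 93 CPM to 16.4, 18 and 14.7 CPM (-2.65, SE 0.0936, adjusted p = 3.96e-17). The groups did not overlap for EHD2 or CHMP3.

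CYB5R3, the reductase of cytochrome b5, fell from 487, 448 and 486 CPM to 82.6, 70.1 and 76.8 CPM, with a log2 fold change of -2.63 (SE 0.0822, adjusted p = 3.92e-18) and -2.51 without Dex. NCK2, an adaptor between receptor tyrosine kinases and actin, fell from 40.7, 46.2 and 44.8 CPM to 6.55, 8.71 and 6.9 CPM (-2.55), and CA12, a carbonic anhydrase at the cell surface, fell from 17.8, 17.1 and 16.1 CPM to 2.44, 2.38 and 2.72 CPM (-2.76). ZNF385A, an RNA-binding zinc finger protein, had -2.89, and TP53I11 had -2.60 with Dex and -1.25 without, a called difference (adjusted p = 0.0041). LHX6, a homeobox transcription factor, fell from 12.5, 14.6 and 15 CPM to 2.83, 2.79 and 2.15 CPM, by 2.41 on the log2 scale with Dex. Without Dex LHX6 had a log2 fold change of -0.61, and the difference of -1.81 passed the test (adjusted p = 0.00114). Annotated genes on either strand overlap 13 of the 20 genes with the largest increases and decreases, and whether the counts kept the strands apart is not stated.

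To ask how Dex-responsive genes behaved, these were defined in siHP1γ libraries, which take no part in the comparison, as genes that changed by 1.5-fold or more between Eth and Dex at an adjusted p-value below 0.01. This gave 154 induced genes (1.01% of those tested) and 101 repressed genes (0.66%). HP1γ depletion may itself change which genes respond to Dex, so genes that need HP1γ for their response could be missing from these groups. How far this bears on the counts below was not tested. The siHP1γ libraries also share the estimate of the spread with the comparison, since all libraries entered 1 fit. Of the induced genes, 94 (61%) were called higher upon PRMT5 depletion with Dex and 23 (14.9%) lower, against 20.6% and 21.9% of all genes, and their median log2 fold change was 0.44. Without Dex, 46 of the same genes were called higher and 35 lower, with a median of 0.10. The difference with and without Dex was called for 41 of the 154 genes and was positive in 36 of them. Of the repressed genes, 20 (19.8%) were called higher and 35 (34.7%) lower with Dex, with a median of -0.03, and 43 were higher and 28 lower without Dex.

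Of the induced genes whose mean over the 6 libraries reached 5 CPM, those that rose most were NEBL, described above, ADAMTS9, AL590004.3, MTMR7 and FLVCR2. FLVCR2, a membrane transporter, went from 4.42, 5.23 and 3.72 CPM to 14.6, 15.1 and 16.1 CPM, with a log2 fold change of 1.78 (SE 0.152, adjusted p = 6.58e-10) and 2.20 without Dex. Among those that fell most, next to LHX6, PLAT, which encodes tissue plasminogen activator, went from 145, 137 and 166 CPM to 55.9, 48.3 and 60 CPM (-1.45). AKAP12, an anchor of protein kinase A, went from 1272, 1440 and 1462 CPM to 485, 533 and 589 CPM (-1.38), and the glycosyltransferase gene B3GNT5 had -1.29. The direction was thus mixed among induced genes, and for AKAP12, B3GNT5 and PLAT the decrease was also called without Dex, at -1.04, -1.48 and -1.14.

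Among Dex-repressed genes, KISS1, which encodes the metastasis suppressor peptide kisspeptin, fell from 26.3, 30.8 and 30.7 CPM to 7.53, 7.48 and 6.79 CPM (-2.0, SE 0.158, adjusted p = 1.49e-10), and MMP1, a collagenase, fell by 1.0 on the log2 scale. PAEP, CORO2B and TAGLN3 also belonged to this group. BMF, a pro-apoptotic BH3 protein, rose from 3.18, 1.85 and 2.72 CPM to 9.38, 10.1 and 11.2 CPM (1.95), less than without Dex (3.11, adjusted p = 0.0134 for the difference). GBP2, a guanylate-binding protein, rose by 1.99 on the log2 scale, and CSF1, the macrophage growth factor, by 0.83.

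A list of 32 well-known glucocorticoid targets had 21 called higher and 4 lower and a median log2 fold change of 0.39. It is not independent of the induced genes, since 21 of the 32 (65.6%) are among the 154, of which they are 13.6%. Of the 11 others, 5 were called higher and 1 lower. Without Dex, 12 were called higher and 10 lower and the median was 0.01, and the difference was called and positive for 9 of them. TSC22D3, which encodes the anti-inflammatory GILZ, rose from 238, 198 and 271 CPM to 430, 362 and 424 CPM (0.78, SE 0.089, adjusted p = 1.02e-07), and by 1.18 without Dex. FKBP5, an immunophilin that feeds back on GR, rose from 502, 501 and 505 CPM to 681, 696 and 776 CPM (0.51, SE 0.0702, adjusted p = 1.75e-06). Without Dex FKBP5 fell by 0.33 on the log2 scale, and the difference of 0.84 passed the test (adjusted p = 2.31e-05). The siPRMT5 Dex libraries were above the siNS Dex libraries for TSC22D3 and FKBP5 throughout.

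PER1, a clock gene, had 0.34 (adjusted p = 0.00303) and KLF9, a Krüppel-like factor, 0.35 (adjusted p = 0.00113), both below TSC22D3 and FKBP5. PDK4, which restrains glucose oxidation, rose from 4.86, 3.16 and 3.9 CPM to 11.1, 11 and 11.2 CPM (1.47). STOM, the membrane protein stomatin, rose from 53, 42.2 and 44.9 CPM to 133, 129 and 118 CPM (1.44, SE 0.0982, adjusted p = 9.35e-12) but fell by 0.38 without Dex, a difference of 1.82 (adjusted p = 1.2e-08). Outside that list, F3, tissue factor, also changed in opposite directions, with 0.82 with Dex and -0.96 without (adjusted p = 1.42e-09 for the difference). CXCR4, a chemokine receptor, had 1.28 with Dex and -1.30 without, a difference of 2.58 (adjusted p = 1.98e-06). Its CPM was 3.71, 4.25 and 2.72 in siNS Dex cells and 9.97, 7.4 and 8.49 in siPRMT5 Dex cells.

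The receptor gene rose slightly and its cofactors were divided. NR3C1 was at 122, 130 and 130 CPM in siNS Dex and 145, 176 and 153 CPM in siPRMT5 Dex cells, a log2 fold change of 0.31 (adjusted p = 0.0062), which lost its call without siPRMT5 Dex replicate 2 (adjusted p = 0.054). Of 30 genes for GR, its chaperones and coregulators, 10 were called higher, 6 of 30 without siPRMT5 Dex replicate 2, and 10 lower, among them the coactivator NCOA3 with 0.77 and the chaperone FKBP4 with -0.58. The coregulator gene CBX3, which encodes HP1γ, was not called (0.16, adjusted p = 0.12). CCBE1 (-0.27), IGFBP3 (-0.71) and PLAT were lower with Dex, and for CCBE1 and IGFBP3 the decrease was smaller than without Dex (-0.92 and -1.63), with differences of 0.65 (adjusted p = 0.00296) and 0.92 (adjusted p = 3.34e-06).

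Genes of the cell cycle changed in opposite directions by phase. E2F factors drive the genes of DNA replication at the G1/S transition, and the MuvB complex with B-MYB and FOXM1 drives mitotic genes through a motif called CHR. Of 57 replication and G1/S genes, 30 were called lower and 2 higher, and of 52 mitotic genes 32 were called higher and 2 lower. The median log2 fold changes were -0.23 and 0.28. Without Dex the counts were 35 lower and 4 higher, and 24 higher and 4 lower.

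As examples of promoters in these groups, the 150 bases before the start site are printed for the 2 called members with the largest change that hold the motif in that window, a choice made after the values were seen. The sequences are from RefSeq (GRCh38.p14), 5′ to 3′ on the strand of the gene. Capitals mark TTTNGCGC, an E2F-like word, in MCM6 (chr2:135876444-135876593, minus strand) and E2F1 (chr20:33686386-33686535, minus strand), and TTTGAA, the CHR word, in ASPM (chr1:197146670-197146819, minus strand) and MKI67 (chr10:128126424-128126573, minus strand), on either strand.
MCM6: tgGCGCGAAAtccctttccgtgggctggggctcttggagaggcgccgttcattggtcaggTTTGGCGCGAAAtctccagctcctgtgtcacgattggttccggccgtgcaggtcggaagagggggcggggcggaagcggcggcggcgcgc
E2F1: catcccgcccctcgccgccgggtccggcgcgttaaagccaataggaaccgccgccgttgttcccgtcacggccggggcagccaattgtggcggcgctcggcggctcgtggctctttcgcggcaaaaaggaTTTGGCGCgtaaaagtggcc
ASPM: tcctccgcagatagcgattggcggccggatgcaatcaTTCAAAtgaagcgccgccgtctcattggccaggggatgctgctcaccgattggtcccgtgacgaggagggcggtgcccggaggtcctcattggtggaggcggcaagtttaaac
MKI67: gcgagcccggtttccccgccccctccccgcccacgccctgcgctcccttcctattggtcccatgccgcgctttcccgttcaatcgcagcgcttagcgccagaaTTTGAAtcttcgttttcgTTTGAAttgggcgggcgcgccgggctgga

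MCM6, a subunit of the replicative helicase, fell from 149, 158 and 155 CPM to 62, 60.4 and 61.8 CPM, with a log2 fold change of -1.33 (SE 0.067, adjusted p = 3.43e-14). Each siPRMT5 Dex library was far below each siNS Dex library. GINS2, a partner of that helicase, fell from 42.5, 47.6 and 46.2 CPM to 23.3, 21 and 22.9 CPM (-1.02). The licensing factor CDT1 fell by 0.87 on the log2 scale, and E2F1 itself went from 34.3, 34.6 and 35.8 CPM to 19, 20.1 and 22.5 CPM (-0.77). The exceptions were E2F3, which rose by 0.65, and CCND1, which encodes cyclin D1 and rose by 0.54.

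Mitotic genes moved the other way. NDC80, a kinetochore subunit, rose from 101, 101 and 96 CPM to 162, 162 and 160 CPM (0.70, SE 0.0618, adjusted p = 1.3e-09), and KIF20A, a kinesin of cytokinesis, from 161, 175 and 163 CPM to 243, 249 and 266 CPM (0.60). The siPRMT5 Dex values of both were above all siNS Dex values. AURKA, a spindle kinase, had 0.56, and ASPM had 0.46. MKI67 was called higher (0.39, adjusted p = 0.0291) although its groups overlapped, at 1459, 1845 and 1700 CPM against 1581, 2539 and 2434 CPM. The exceptions were PLK1, a mitotic kinase, with -0.29 and CENPI, a centromere protein, with -0.38. Over the promoters from 250 bases before to 50 after the start, TTTNGCGC was present in 17 of 47 G1/S promoters (36.2%) and in 2.81% of 10035 promoters of tested genes, and TTTGAA in 30 of 44 mitotic promoters (68.2%) and in 10.3%. Among members called in the direction of their list, 9 of 25 and 18 of 26 held the word. These shares were near the 36.2% and 68.2% of the whole lists, so the words did not set the called members apart.

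Targets of ATF4, the factor that induces amino acid synthesis and transport in the integrated stress response, were lower. Of 25 genes, 18 were called lower and 1 higher with Dex, and the same counts were found without Dex. The amino acid transporter SLC7A5 fell from 218, 192 and 216 CPM to 49, 52 and 49.5 CPM, a log2 fold change of -2.06 (SE 0.0757, adjusted p = 7.04e-17). CHAC1, which degrades glutathione, fell from 14.2, 11.7 and 11.2 CPM to 3.42, 3.45 and 2.83 CPM (-1.92), and the cystine transporter SLC7A11 fell from 139, 166 and 167 CPM to 53.2, 66.8 and 49.1 CPM (-1.47). The groups were apart in all of them. ATF4 itself fell from 320, 305 and 295 CPM to 211, 187 and 185 CPM (-0.66, SE 0.0671, adjusted p = 1.47e-08). CEBPB was the 1 gene called higher, with 0.58, and 4 were called higher after the correction for GC content described below. CEBPG, a dimer partner of ATF4, fell from 138, 140 and 141 CPM to 86.7, 81.9 and 83.4 CPM (-0.73). It is shown because its promoter holds TGATGNAA, the word of CEBP-ATF sites, in capitals (chr19:33373963-33374112, plus strand, RefSeq, GRCh38.p14).
CEBPG: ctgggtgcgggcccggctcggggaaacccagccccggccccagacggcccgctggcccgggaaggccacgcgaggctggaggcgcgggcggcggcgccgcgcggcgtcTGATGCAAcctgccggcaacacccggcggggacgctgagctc

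That word was in 2 of 21 promoters of the list (9.52%) and in 1.84% of all promoters. Other genes of protein synthesis and quality control leaned lower as well. Of 22 genes of cytosolic aminoacyl-tRNA synthetases and their partners AIMP1, AIMP2 and EEF1E1, 9 were called lower and 4 higher, AIMP2 among the higher. Without siPRMT5 Dex replicate 2 the 4 became 2. AARS1 had -1.10 and QARS1 -0.84. Of 42 translation factors, 13 were called lower and 4 higher, but 6 and 2 without siPRMT5 Dex replicate 2. Of 34 proteasome subunits, 13 were called lower and 4 higher, 2 higher without siNS Dex replicate 3 or siPRMT5 Dex replicate 2, and PSMD2, a base subunit of the regulatory particle, fell from 534, 563 and 548 CPM to 158, 145 and 162 CPM (-1.82, SE 0.0868, adjusted p = 1.16e-14). Of 43 heat shock proteins and chaperones, 17 were called lower and 6 higher, the 6 becoming 3 without siNS Dex replicate 1. HSPA5, the chaperone BiP of the endoplasmic reticulum, fell from 834, 887 and 894 CPM to 408, 399 and 433 CPM (-1.08), and DNAJB1 fell by 1.17. The shares called lower were 38.2% for the proteasome and 39.5% for the chaperones, beside 21.9% of all genes.

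Of 43 interferon-stimulated genes, 21 (48.8%) were called higher and 3 lower with Dex, against 20.6% and 21.9% of all genes, with a median log2 fold change of 0.41, and without Dex 28 were called higher and 3 lower. OAS2, which makes the activator of RNase L, rose from 1.32, 1.2 and 0.816 CPM to 5.67, 6 and 6.22 CPM (2.41, SE 0.238, adjusted p = 8.52e-09). IFIH1, the RNA sensor MDA5, rose from 12.7, 10.1 and 10.9 CPM to 32.9, 36.7 and 30.9 CPM (1.57, SE 0.111, adjusted p = 1.78e-11). IFI44L rose from 0.795, 0.981 and 0.453 CPM to 2.54, 2.55 and 2.49 CPM (1.77). All siPRMT5 Dex libraries were above all siNS Dex libraries in these 3 genes. OAS1 had 2.05 at 0.977, 1.32 and 0.905 CPM in siPRMT5 Dex cells and rests on few counts. TRIM25 (-0.66), an E3 ligase of RNA sensing, and PARP12 (-0.60) were lower.

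The word GAAANNGAA, from the element bound by interferon-activated factors, was in 22 of 32 promoters of these genes (68.8%) and in 6.47% of all promoters, and 11 of the 15 called higher with a promoter held it. That share of the called members was near that of the whole list. The 150 bases before the start of IFI44L (chr1:78620298-78620447, plus strand) and IFIH1 (chr2:162318685-162318834, minus strand) are shown with the word in capitals (RefSeq, GRCh38.p14), as the called members with the largest change that hold it.
IFI44L: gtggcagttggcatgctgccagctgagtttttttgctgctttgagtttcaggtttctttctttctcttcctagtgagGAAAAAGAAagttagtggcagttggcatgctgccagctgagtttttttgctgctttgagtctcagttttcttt
IFIH1: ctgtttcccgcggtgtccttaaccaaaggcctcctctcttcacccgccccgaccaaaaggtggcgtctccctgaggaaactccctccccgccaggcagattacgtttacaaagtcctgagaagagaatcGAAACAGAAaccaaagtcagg

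Among 30 cytokine and NF-kB genes, 10 were called higher and 4 lower. TNFAIP3, the deubiquitinase A20 that restrains NF-kB, had 0.80, TNIP2, its partner, had -1.29, and IL11, a cytokine of the IL6 family, fell from 7.86, 6.43 and 6.35 CPM to 1.37, 1.32 and 1.02 CPM (-2.46). PTGES, the prostaglandin E synthase, rose from 7.77, 3.92 and 6.71 CPM to 19.1, 14.8 and 14.1 CPM (1.36), less than without Dex (2.76, adjusted p = 0.00364 for the difference). Each of these genes had groups that did not overlap.

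Splicing genes, the best-known setting of PRMT5 substrates, were mixed at the level of total counts per gene, which do not show how a transcript is spliced. Of 17 Sm and Lsm genes, 4 were called higher and 2 lower, and of 8 genes of the SMN complex, which loads Sm proteins on snRNA, 4 were higher and none lower. The 4 became 2 without siNS Dex replicate 2, siNS Dex replicate 3 or siPRMT5 Dex replicate 1. DDX20, an SMN complex helicase, rose from 127, 112 and 121 CPM to 171, 184 and 168 CPM (0.54). SRPK1, the kinase of SR proteins, fell from 464, 447 and 473 CPM to 229, 249 and 218 CPM (-0.99, SE 0.0646, adjusted p = 4.06e-12). It was the 1 decrease among 19 genes of SR proteins and splicing kinases, of which 7 were called higher. TRA2A had 0.67, and of 23 hnRNP genes 8 were higher and 4 lower, with the neuronal PTBP2 at 0.75. The SR and hnRNP counts depended on base composition, given below.

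MDM4, a p53 inhibitor whose splicing is known to respond to PRMT5, rose from 43.2, 34 and 42.6 CPM to 54.5, 52.4 and 55.2 CPM (0.43, adjusted p = 0.00209). MDM2 was not called (0.01, adjusted p = 0.932). CDKN1A, the p21 inhibitor of cyclin kinases, fell from 51.1, 49.5 and 51.9 CPM to 38.3, 38 and 36.7 CPM (-0.43, adjusted p = 9.8e-05). Of 30 p53 regulators and targets, 13 were called higher and 5 lower, led by TP53INP1 (0.95) and RRM2B (0.71) on one side and PHLDA3 (-0.67) and PLK2 (-0.61) on the other. Of 48 genes of homologous recombination and the Fanconi pathway, 11 were higher and 13 lower, with 6 higher without siPRMT5 Dex replicate 2 and 7 without siNS Dex replicate 3. NBN, of the break-sensing complex, rose by 0.88 and FANCD2 fell by 0.85 on the log2 scale.

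Chromatin regulators leaned higher. Of 46 histone lysine methyltransferases and demethylases, 18 were called higher and 6 lower, and 30 and 5 without Dex. KMT5A, which monomethylates histone H4 lysine 20, was the largest decrease of the list, from 40.1, 36.6 and 40.6 CPM to 13.1, 15.6 and 16 CPM (-1.39, SE 0.104, adjusted p = 4.48e-11), and KDM8 had 1.03. CBX1, which encodes HP1β, fell from 120, 124 and 122 CPM to 64.8, 64.3 and 56.4 CPM (-0.98), while of 20 genes of HP1 proteins and H3K9 methylation 6 were higher and 2 lower. Of 25 SWI/SNF subunits, 9 were higher and 3 lower. Of 432 genes with ZNF symbols, zinc finger proteins that are mostly DNA-binding repressors, 134 were called higher and 38 lower, with a median of 0.16. The 203 of them on chromosome 19, where many lie in clusters, had 61 higher and 13 lower, the 229 elsewhere 73 and 25, and the 692 other genes of chromosome 19 had 72 and 190. Without Dex the counts of these groups were 42 and 23, 49 and 25, and 146 and 121. The lean of the other genes of chromosome 19 was thus seen with Dex only, and they were not counted after the correction for GC content described below. Copies within the ZNF clusters are alike, and reads could be split between them.

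Surface and matrix genes were divided. AXL, a receptor tyrosine kinase of mesenchymal breast cancer cells, fell from 864, 782 and 844 CPM to 195, 191 and 182 CPM, a log2 fold change of -2.13 (SE 0.0638, adjusted p = 2.05e-18) that was also -2.13 without Dex. ADAMTS6 fell from 212, 212 and 219 CPM to 57.8, 59.8 and 51.8 CPM (-1.92, SE 0.069, adjusted p = 4.33e-17), in contrast to ADAMTS15 and ADAMTS9, and ADAM15 fell by 1.57. For AXL and ADAMTS6 the highest siPRMT5 Dex library lay below every siNS Dex library. Of 30 genes of ADAM, ADAMTS and matrix metalloproteases and their inhibitors, 8 were called higher and 6 lower with Dex, and 15 and 5 without. With Dex the inhibitor genes RECK and TIMP4 were among those higher and TIMP3 among those lower. Of 39 collagens, laminins and cross-linkers, 12 were higher and 13 lower with Dex and 19 and 8 without, and the 6 called differences were all negative. COL1A1 rose from 5.12, 4.36 and 5.26 CPM to 10.8, 10.4 and 13 CPM (1.20), less than without Dex (2.10, adjusted p = 0.039 for the difference). The difference of COL1A1 lost its call after the correction for GC content described below (adjusted p = 0.1).

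Integrins, the receptors of that matrix, had 4 of 15 genes higher and 3 lower. ITGB4, the laminin receptor subunit of hemidesmosomes, fell from 27.1, 29.1 and 34.6 CPM to 13.4, 10.9 and 16.5 CPM with Dex (-1.17, SE 0.132, adjusted p = 7.34e-08) and had 0.01 without Dex (adjusted p = 0.976), a difference of -1.18 (adjusted p = 0.000372). ITGA10 rose by 1.52 and ITGA3 fell by 1.12 on the log2 scale. Of 23 genes of FGF signalling, 10 were lower and 7 higher, with FGF1 at -1.81 and, on the other side, the ETS factor gene ETV1 at 1.16 and the feedback inhibitor SPRY1 at 0.92. Of 16 EMT factors and mesenchymal or epithelial markers, 1 was higher and 4 lower. The 4 were AXL, FOSL1, SNAI1 and the epithelial splicing factor gene ESRP2 (-1.49), whose groups overlapped. TGF-beta and Hippo pathway genes had 14 higher and 9 lower of 36, and 11 and 9 of 31. TGFB3, a ligand, rose from 0.618, 0.654 and 0.816 CPM to 1.95, 2.79 and 3.85 CPM (2.0), and VGLL4, a YAP antagonist, from 33.4, 30.9 and 30.9 CPM to 78.9, 78.6 and 82.8 CPM (1.33).

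**Figure D3:**
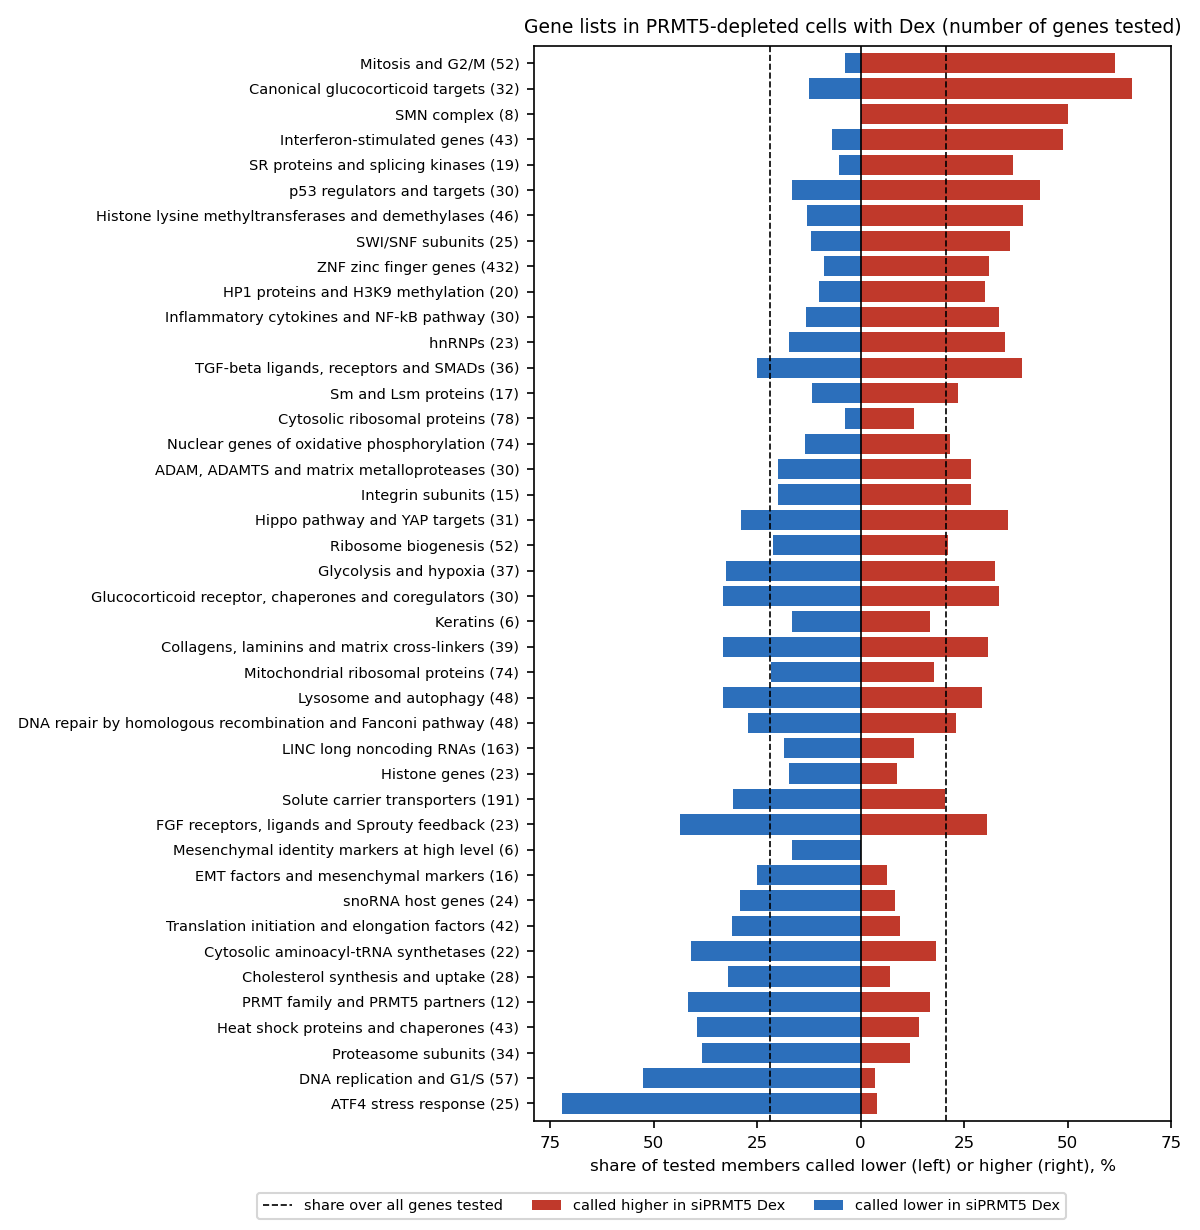
Percent of the tested genes of each list called higher and called lower upon PRMT5 depletion with Dex, with dashed lines at the shares of all genes tested (20.6% higher, 21.9% lower). Mitotic genes, glucocorticoid targets and interferon-stimulated genes lie on the higher side, and G1/S and ATF4 genes on the lower.

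Glycolysis and hypoxia genes had 12 higher and 12 lower of 37, with the glucose transporter SLC2A1 falling from 171, 165 and 157 CPM to 58.4, 60.4 and 57.7 CPM (-1.48). Cholesterol genes had 2 higher and 9 lower of 28, led by MVD (-0.90), an enzyme of the mevalonate pathway. Oxidative phosphorylation genes of the nucleus had 16 higher and 10 lower of 74, mitochondrial ribosomal proteins 13 and 16 of 74, and cytosolic ribosomal proteins 10 and 3 of 78. Without 1 library the higher counts of the ribosomal proteins fell to 6 (mitochondrial) and 5 (cytosolic), both without siPRMT5 Dex replicate 1, to 7 (mitochondrial) without siNS Dex replicate 2 or 3 and 8 without siPRMT5 Dex replicate 2, and to 6 (cytosolic) without siNS Dex replicate 1 or 3. The 16 mitochondrial ones called lower became 10 without siPRMT5 Dex replicate 2. In Eth-treated cells the mitochondrial ribosomal proteins had 3 higher and 19 lower, and the cytosolic ones 1 higher and 10 lower. MRPS27 had -1.87. Solute carriers had 39 higher and 59 lower of 191, and the copper transporter SLC31A1 had -2.03. Ribosome biogenesis had 11 and 11 of 52, led downwards by EBNA1BP2 (-2.02), but 2 higher and 22 lower without Dex, and its 9 called differences were all positive. Lysosome and autophagy genes had 14 and 16 of 48, keratins 1 and 1 of 6, and histone genes 2 and 4 of 23. Of 24 hosts of snoRNA, 2 were higher and 7 lower, with SNHG16 at -0.66. The 13 mitochondrially encoded mRNAs were listed at 0 counts in every library and could not be examined.

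With Dex, long noncoding RNAs were called higher less often than genes over all, while the share called lower was near that of all genes. Of 607 annotated as lncRNA, 68 (11.2%) were called higher and 121 (19.9%) lower, beside 20.6% and 21.9% of all genes. Their median log2 fold change was -0.07. Without Dex 53 of them were called higher and 156 lower, with a median of -0.20. How far their count levels bear on these shares was not tested. Of 11672 protein-coding genes, 2774 (23.8%) were higher and 2871 (24.6%) lower. Of 163 genes with LINC symbols, 21 were higher and 30 lower, and LINC00707 fell from 2.65, 1.96 and 2.54 CPM to 0.195, 0.0822 and 0.339 CPM (-3.56, SE 0.422, adjusted p = 1.9e-07), with siPRMT5 Dex values of a few counts per library. Of 1091 processed pseudogenes, 98 were higher and 117 lower. Protein-coding genes called higher had a median span of 43.5 kb and those called lower 36.3 kb, against 32.4 kb for genes not called, and the median number of exons was 9, 10 and 9.

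The direction followed base composition with Dex. In 5 equal groups of protein-coding genes ordered by the GC content of their transcripts, the share called higher went from 37.2% in the lowest group (30.7 to 40.4% GC) through 31.3%, 22.8% and 17% to 10.7% in the highest (58 to 76% GC). The share called lower went from 14.4% to 32.9%, and the median log2 fold change from 0.16 to -0.17. Without Dex the medians of the lowest and highest groups were -0.00 and 0.04. The trend differed between libraries of a group and was widest in siPRMT5 Dex replicate 2, where the lowest GC group of all annotated genes had a median of 0.19 and the highest of -0.20 relative to the mean of the 18 libraries on the log2 scale. In siNS Dex replicate 1 it ran the other way, at -0.08 and 0.12. The siPRMT5 Dex replicates 1 and 3 had 0.05 and -0.03, and 0.01 and -0.03. Without Dex the siNS Eth replicates had 0.16 and -0.15, -0.02 and 0.03, and 0.04 and -0.05. The siPRMT5 Eth replicates had -0.02 and 0.04, 0.03 and -0.02, and 0.09 and -0.10. Single libraries without Dex thus also showed a trend. Whether the trend in the comparison with Dex is biological or a property of the libraries was not tested.

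After a correction of each library for GC content, an alternative added after the data were seen, the medians of the lowest and highest groups were 0.03 and 0.01, and 3608 genes were called higher and 3359 lower. The list counts were as follows. G1/S genes had 32 lower and 4 higher, mitotic genes 33 higher and 3 lower, ATF4 targets 18 lower and 4 higher, interferon-stimulated genes 25 higher, canonical glucocorticoid targets 23 higher and ZNF genes 135 higher. The genes of SR proteins and splicing kinases changed from 7 higher and 1 lower to 4 and 2, and the hnRNP genes from 8 and 4 to 5 and 5. The differences of PDZD2, CXCR4, STOM, F3, FKBP5, LHX6 and ITGB4 with and without Dex were still called, at 1.75, 2.56, 1.74, 1.71, 0.78, -1.66 and -0.97. That of EHD2 (-0.56, adjusted p = 0.0161) lost its call (-0.36, adjusted p = 0.0853). So did those of COL1A1 (-0.70, adjusted p = 0.1), KRT80 (-0.46, adjusted p = 0.131), MVD (-0.37, adjusted p = 0.0617) and RIOK1 (0.32, adjusted p = 0.0829).

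**Figure D4:**
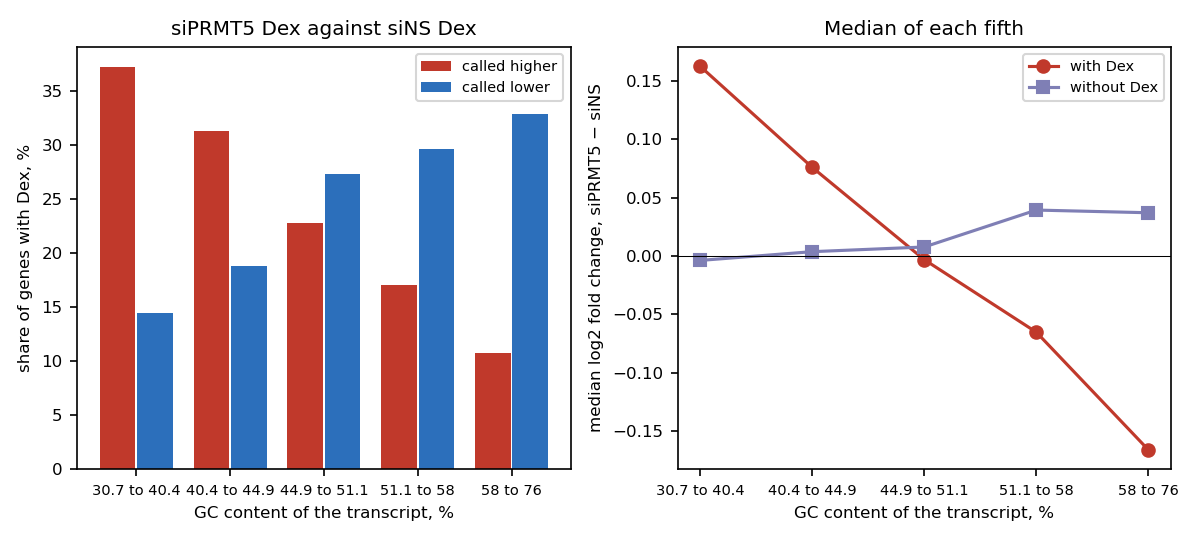
Left, percent of protein-coding genes called higher and lower upon PRMT5 depletion with Dex in 5 groups of GC content. Right, median log2 fold change of the same groups with and without Dex. The share called higher falls from 37.2% to 10.7% and the share called lower rises from 14.4% to 32.9%, while the medians without Dex stay between -0.00 and 0.04.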

How the data were processed

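RNA was sequenced in 18 libraries, 3 in each of 6 conditions, grouped by the siRNA, treatment and replicate in their labels. The authors prepared the libraries with Lexogen kits, mapped the reads on hg38 with Bowtie2 (2.4.2) and counted them with htseq-count (0.9.1). The authors deposited whole-number counts per gene symbol for 60642 symbols, without normalization. The replicates are described as biological. The gene annotation and the strand setting are not given in the sources used here. A table of the authors' own comparisons, with fold changes and adjusted p-values, was not used.

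Genes were filtered with filterByExpr, which kept 15298, library sizes were scaled by TMM, and all 18 libraries entered 1 quasi-likelihood fit (edgeR 4.0.16, R 4.3.3, 12 residual degrees of freedom), and p-values were adjusted by Benjamini-Hochberg over all genes tested. CPM were computed from the counts and the scaled library sizes. Names and coordinates were matched to GENCODE 44 for 88.6% of the genes tested. The fit was tested on simulated data. Alternatives were DESeq2 (1.42.0), other scalings, filters and fold limits, the 6 libraries alone, a replicate block, leaving out each of the 6 libraries, and a GC correction.

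The members and the 45 lists were chosen with earlier results of these data known. Genes were named by a rule: PRMT5, ADAMTS15, PAEP and FGFRL1, the 10 largest called increases and decreases with a mean of at least 5 CPM and groups that did not overlap, the 2 largest in each direction per list, fixed genes of the PRMT5 and GR pathways, and the 3 largest differences in each direction. Other genes named were chosen after their values were seen. Some genes are not reported here.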

Additional observations from a re-analysis of the deposited data

Results flagged for a closer look

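For the named genes below, the effect of PRMT5 depletion differed between Dex-treated and Eth-treated cells in the interaction test of edgeR's quasi-likelihood fit, with an adjusted p-value under 0.05. Groups of 3 libraries are too small for a check of single outlying libraries. Values are the log2 fold change with Dex minus that without Dex. After the GC correction the differences of EHD2, COL1A1, KRT80, MVD and RIOK1 were no longer called.

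PRMT5 itself had a difference of 0.57 (adjusted p = 0.0297), with log2 fold changes of -4.50 with Dex and -5.08 without. Among genes that rose upon depletion with Dex, the difference was positive for PDZD2 (1.67, adjusted p = 7.96e-08), CXCR4 (2.58, adjusted p = 1.98e-06), STOM (1.82, adjusted p = 1.2e-08), F3 (1.78, adjusted p = 1.42e-09), ADAMTS9 (0.95, adjusted p = 0.005) and FKBP5 (0.84, adjusted p = 2.31e-05). It was also positive for FOXA1 (0.89, adjusted p = 0.0402), ITGA1 (0.78, adjusted p = 0.0485), NBN (0.77, adjusted p = 0.00184), MRPL1 (0.67, adjusted p = 0.0101), ADM (0.64, adjusted p = 0.00564), CEBPB (0.59, adjusted p = 0.0284), RRS1 (0.47, adjusted p = 0.00762) and RIOK1 (0.40, adjusted p = 0.0305). It was negative, so that the increase was smaller with Dex, for PTGES (-1.40, adjusted p = 0.00364), ITGA10 (-1.24, adjusted p = 0.00651), BMF (-1.15, adjusted p = 0.0134), COL1A1 (-0.90, adjusted p = 0.039), KRT80 (-0.61, adjusted p = 0.0383) and CSF1 (-0.38, adjusted p = 0.0311).

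Among genes that fell with Dex, the difference was positive, so that the decrease was smaller with Dex, for IGFBP3 (0.92, adjusted p = 3.34e-06), MMP1 (0.68, adjusted p = 0.0305), CCBE1 (0.65, adjusted p = 0.00296), ADAMTS6 (0.61, adjusted p = 0.000483) and SNHG16 (0.55, adjusted p = 0.034). It was negative for LHX6 (-1.81, adjusted p = 0.00114), TP53I11 (-1.35, adjusted p = 0.0041), ITGB4 (-1.18, adjusted p = 0.000372), ITGA3 (-0.60, adjusted p = 0.00296), MVD (-0.59, adjusted p = 0.0392), EHD2 (-0.56, adjusted p = 0.0161) and TRIM25 (-0.47, adjusted p = 0.00725).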

How the results depend on the processing

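With a limit on the fold change, the genes called higher were 999 at 1.5-fold and 338 at 2-fold, and those called lower 1593 and 691. Under the other tools, scalings, filters and library choices the counts of genes called stayed within 1.5 times those reported. The exception was the 582 genes whose effect differed with and without Dex, which ranged from 330 (without siNS Dex replicate 1) to 610 when 1 library was left out. Without 1 library, 2661 (without siPRMT5 Dex replicate 2) to 3023 genes were called higher and 2857 to 3067 lower. Over the gene lists, 1926 alternative counts and medians stayed close to those reported and 84 moved. Beside those given above, leaving out 1 library moved 8 list counts by over 1.5 times. Genes called lower became 1 of 2 for Sm and Lsm genes (without siNS Dex replicate 1 or siPRMT5 Dex replicate 3), 2 of 4 for hnRNP genes (siNS Dex replicate 1), 1 of 2 for HP1 and H3K9 genes (siNS Dex replicate 2, siPRMT5 Dex replicate 1 or 2), 0 of 1 for keratins (siNS Dex replicate 2 or 3, siPRMT5 Dex replicate 2) and 2 of 4 for histone genes (siNS Dex replicate 2 or siPRMT5 Dex replicate 1). Genes called higher became 1 of 2 for cholesterol genes (siNS Dex replicate 1 or 2, siPRMT5 Dex replicate 1 or 2), 0 of 1 for EMT genes (siNS Dex replicate 3 or siPRMT5 Dex replicate 1), and 0 to 4 for the 2 snoRNA hosts (5 of the 6 libraries, all but siNS Dex replicate 1). The 6 libraries alone give no values without Dex or for the Dex response.

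None of the 181 called genes that were named by the rule changed direction under any alternative run, and 15 lost the call under at least 1. Genes named outside the rule, such as MKI67, PRMT1 and ATF4, were not part of this check. Signs changed for 3 genes named by the rule that were not called. WDR77 had 0.0137 with the GC correction and -0.0839 to 0.0609 without 1 library. CLNS1A had 0.0001 with DESeq2, 0.0015 with library size only, and -0.0543 to 0.0174 without 1 library. MDM2 had -0.0958 with the GC correction and -0.0418 to 0.0928 without 1 library. CBX3 gained the call without siPRMT5 Dex replicate 3 (0.25, adjusted p = 0.0232).

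Same-numbered siPRMT5 Dex and siNS Dex libraries correlated by 0.0988, 0.0774 and 0.0139 in their deviations from the group means. Different-numbered ones correlated by -0.0822 to 0.00269, below each same-numbered value. The same-numbered values were small, so the numbers were not taken to pair the libraries in the main fit, although a weak pairing is not excluded. In a paired fit with a replicate block, 3170 genes were called higher and 3349 lower, and 6385 of the 6488 genes were among the 6519 called. Depth of 9014181 to 12472381 counts limits genes near 1 CPM.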
